A study of Mus musculus with 26 samples.

Results

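The 9 genes described here encode the transient receptor potential (TRP) channels Trpv1, Trpv2, Trpa1, Trpm2, Trpm3, Trpm8 and Trpc6 and the mechanically gated channels Piezo1 and Piezo2. They were taken by name as sensory transduction channels, by a rule that uses no measured value although earlier results of these data were known, and make up 9 of the 55401 genes counted. All 9 passed the filter on low counts in every fit, so the counts of members below cover the whole set. Sequencing covered 26 libraries of 10 groups of mouse dorsal root ganglion (DRG) tissue or neurons, the ganglia that hold the cell bodies of sensory neurons,, to compare mice with and without a conditional deletion of Ahr, the gene of the aryl hydrocarbon receptor. Conditional knockout (cKO) mice were labelled Ahr f/f Thy1-CRE(ERT2/EYFP), that is, with floxed alleles and a tamoxifen-inducible Cre and yellow fluorescent protein under the Thy1 promoter. Control mice carried floxed Ahr without Cre: in the naive and in the injured group alike, 2 were Ahr fl/+ and 1 was Ahr fl/fl. The 3 neuron controls were Ahr fl/fl, and of the 2 sham controls mouse 1 was Ahr f/+ and mouse 2 Ahr fl/fl.

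Naive and injured mice, controls included, had been given 5 daily doses of 100 mg/kg tamoxifen when 28 weeks old. Lumbar ganglia were taken 5 weeks later without surgery (3 mice per genotype, naive) or after a crush of the sciatic nerve 1 day before collection (3 mice per genotype, injured), and each library was 1 mouse. Semi-purified DRG neurons were sequenced 24 hours after seeding in culture (3 libraries per genotype), and sham-operated mice gave ganglia of the operated (ipsilateral) and the opposite (contralateral) side 1 day after surgery (2 mice per genotype). The labels give no tamoxifen dose and no age for the neuron and sham groups. Naive mice and the neuron libraries were labelled female, sham mice male, and each injured group held 2 mice labelled female and 1 labelled male.

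TRP channels are cation channels of sensory nerve endings. Trpv1 opens to noxious heat, acid and capsaicin, Trpa1 to irritant electrophiles, Trpm8 to cold and menthol, and Trpm2 and Trpm3 take part in sensing warmth and heat. Piezo2 is the main channel of light touch and of body position sense, whereas Piezo1 is best known for sensing shear stress in blood vessels and red cells.

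Depth ran from 20169388 to 23540375 total counts in the 12 libraries of naive or injured mice, from 39306414 to 58751270 in sham mice and from 25299938 to 88180611 in neurons. The targeted gene did not check the genotype labels: on the counts-per-million (CPM) scale, Ahr was at 18 to 22.8 CPM in naive control and 21.4 to 26.8 CPM in naive cKO ganglia, and its difference passed the test in none of the 5 cKO comparisons. Thy1, whose promoter drives the transgene, was higher in every library labelled cKO than in every control library of the same tissue, time and side. By Xist and Y-linked transcripts, injured control replicate 3 (labelled male) was female and injured cKO replicate 2 (labelled female) was male, and results are given without them where a call changes. By the labels' mouse numbers, libraries of a group came from separate mice, and p-values measure the spread between these samples. The comparisons of injury, of genotype in naive ganglia and of culture share the naive libraries.

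The stretches upstream of the 3 channel genes called after injury in both genotypes by the main test are shown here, so that their letters can be read directly. Of these calls, that of Trpv1 in cKO mice was lost in most alternative settings. RefSeq (GRCm38.p6) gave promoter entries for 7 of the 9 genes, and Trpa1 and Piezo2 had none. Each stretch is the 250 bases before an annotated start, on the strand of the gene and written 5′ to 3′, for Trpv1 (chr11:73233899-73234148, plus strand), Trpv2 (chr11:62574236-62574485, plus strand, the first of 3 annotated starts) and Trpc6 (chr9:8543892-8544141, plus strand):
Trpv1: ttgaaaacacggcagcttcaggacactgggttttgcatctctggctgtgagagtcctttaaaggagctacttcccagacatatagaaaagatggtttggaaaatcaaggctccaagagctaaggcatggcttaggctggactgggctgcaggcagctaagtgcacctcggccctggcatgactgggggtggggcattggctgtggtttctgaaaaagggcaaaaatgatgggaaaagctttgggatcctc
Trpv2: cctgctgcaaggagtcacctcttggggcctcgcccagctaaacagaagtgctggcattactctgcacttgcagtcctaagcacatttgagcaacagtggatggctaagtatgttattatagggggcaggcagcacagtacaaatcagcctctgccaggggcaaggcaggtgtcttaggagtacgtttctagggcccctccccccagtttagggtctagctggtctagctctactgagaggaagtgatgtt
Trpc6: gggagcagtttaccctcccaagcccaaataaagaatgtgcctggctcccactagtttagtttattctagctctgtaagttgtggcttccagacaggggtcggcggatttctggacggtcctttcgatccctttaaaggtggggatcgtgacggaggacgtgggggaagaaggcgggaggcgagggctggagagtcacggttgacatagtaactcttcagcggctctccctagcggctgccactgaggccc

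The motifs searched in the windows of all 7 genes, on both strands, were the core of the AhR response element (GCGTG), the AP-1 site (TGANTCA) and the cAMP response element (TGACGTCA). The core GCGTG was found only upstream of Trpm3, once before each of its 2 annotated starts, and the other motifs before none of the 7 genes. The 2 matches begin 199 and 94 bases before the start and are shown in capitals, with 20 bases on either side. The stretches printed are chr19:22138827-22138871 and chr19:22448094-22448138 (plus strand):
Trpm3, first start: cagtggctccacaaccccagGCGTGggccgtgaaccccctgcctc
Trpm3, second start: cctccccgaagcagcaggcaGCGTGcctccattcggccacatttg
Of the 32851 RefSeq promoter windows of this length, 28.2% held GCGTG, 6.7% the AP-1 site and 1.5% the cAMP response element. A match is a run of letters, and the absence of one says only that these letters are not in this window.

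Levels were compared first, on CPM scaled over all 26 libraries. In naive control ganglia the mean was highest for Piezo2 and Trpv1 and lowest for Piezo1. Piezo2 was at 216, 252 and 235 CPM in the 3 naive control libraries, Trpv1 at 113, 136 and 124 CPM, and Piezo1 at 4.76, 3.11 and 4.55 CPM. CPM grow with the length of a gene, so levels of different genes were compared per kilobase of exon. Whether reads were counted over exons or over whole genes is not given in the sources used here, and the deposited FPKM use the whole span, so the order is also given per kilobase of span. Per kilobase of exon, Trpv1 came first in all 8 groups of ganglia (33.8 ± 3.16 CPM per kilobase in naive control, SD, n = 3) and Trpv2 first in both groups of neurons. Piezo1 was the lowest of the 9 in every group of ganglia per kilobase of exon. Per kilobase of whole gene span, Trpv1 again led in the ganglia and Trpv2 in the neurons. By span, Piezo2 (376971 bases long with its introns) stood behind Trpv2 and Trpa1 in all 8 groups of ganglia. By exon, Piezo2 stood behind both only in injured control ganglia. It stood ahead of both in naive ganglia of either genotype and in contralateral cKO sham ganglia, so its place in the order depends on the length used.

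**Figure D1:**
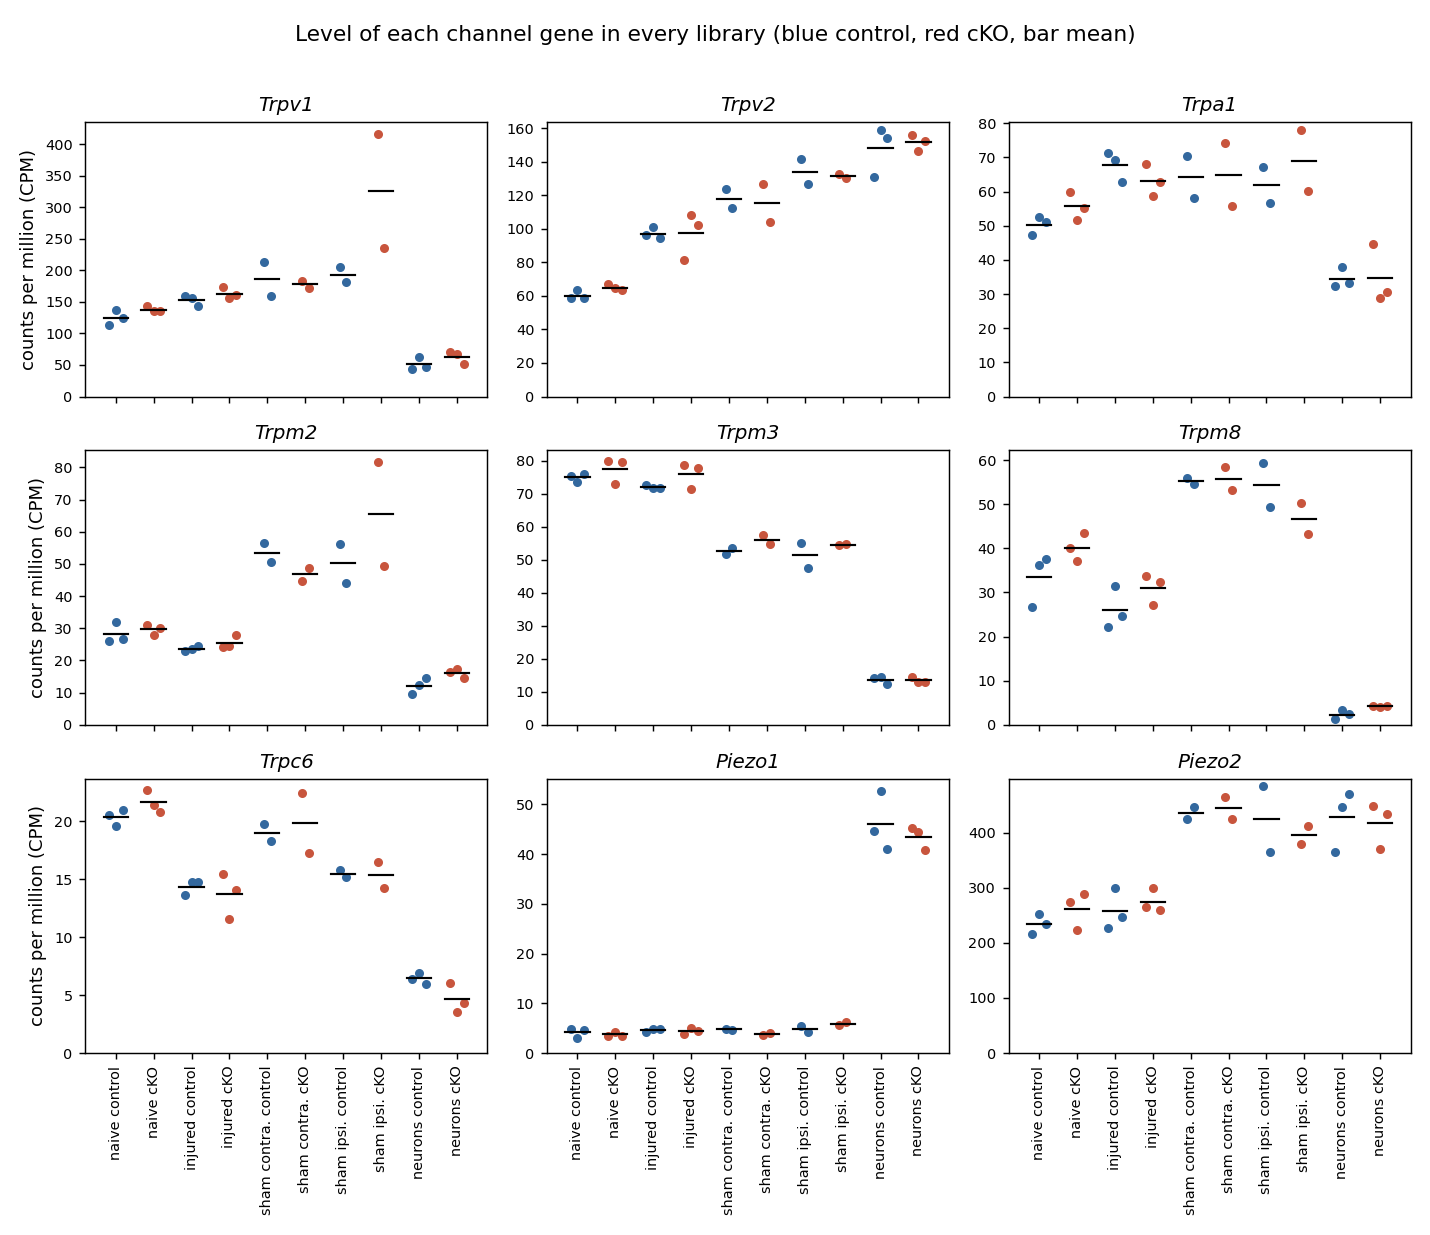
Level in CPM (y axis, from 0, its own scale for each gene) of the 9 channel genes in each of the 26 libraries (points) by group (x axis), blue for control and red for cKO, with a bar at the group mean. By group mean, Trpm8, Trpm3, Trpc6, Trpv1, Trpm2 and Trpa1 are lowest and Piezo1 and Trpv2 highest in the neurons. In the sham ipsilateral cKO group 1 library stands at 417 CPM for Trpv1.

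The order of the 10 groups differed between the genes. Trpv1 was highest in the sham ipsilateral cKO ganglia (235 and 417 CPM) and lowest in the neurons (44.1 to 70.9 CPM), with the other ganglia between. Trpv2 had its lowest level in naive ganglia (58.5 to 66.9 CPM) and its highest in neurons (131 to 159 CPM). Groups next to each other in these orders mostly overlapped: of the 9 steps between neighbouring groups, 6 overlapped for Trpv1 and 6 for Trpv2. Sham ganglia of either side stood above all naive ganglia for Trpv1 (159 to 417 against 113 to 143 CPM), Trpv2 (104 to 141 against 58.5 to 66.9 CPM), Trpm2 (44 to 81.7 against 26.2 to 31.9 CPM) and Piezo2 (365 to 485 against 216 to 288 CPM). They stood below them for Trpm3 (47.5 to 57.6 against 72.9 to 79.8 CPM). The share of all genes that separate in this way was not computed, so the separation is not read as particular to these channels. Sham and naive ganglia are in different deposited tables and of different labelled sex, and the sham labels give no age or tamoxifen. Surgery, sex, age, tamoxifen and whatever else differs between the tables cannot be told apart in these levels, which were not tested. The summed level of 12 pan-neuronal markers was 9810 to 11000 CPM in sham and 7260 to 8080 CPM in naive ganglia, and its part in them was not tested. The processed pseudogene AC124513.1, which lies inside Trpm3, had a mean of 16.9 CPM in naive ganglia and 1.14 CPM on either side of the sham mice. Whether its reads are among those counted for Trpm3 was not tested.

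The response to nerve crush was tested within the 12 naive and injured libraries with edgeR's quasi-likelihood test, adjusted by Benjamini-Hochberg over 21261 genes and called at an adjusted p under 0.05. In control mice, 3 of the 9 channel genes rose (Trpv2, Trpa1 and Trpv1) and 1 fell (Trpc6), where 21.6% of all genes tested were called (12.9% higher and 8.73% lower). In cKO mice Trpv2 and Trpv1 rose and Trpc6 fell, where 18.6% of all genes were called (10.7% higher and 7.89% lower). The cKO call of Trpv1 was lost in most alternative settings, as given below. The changes were small: no channel gene changed by as much as Bdkrb2, a bradykinin receptor whose signalling sensitises Trpv1 and Trpa1, which rose from 10.98 to 11.66 CPM in naive control to 34.5 to 39.1 CPM in injured control ganglia. The median log2 fold change of the 9 genes was 0.14 in control and 0.05 in cKO mice, beside -0.02 and -0.01 over all genes. In these bulk samples, fewer cells of a type and less RNA per cell cannot be told apart.

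Of the heat and irritant channels, Trpv2 (ENSMUSG00000018507.16, chr11:62574486-62600515 in GRCm38), a channel with a high heat threshold when expressed alone, rose most. It was at 58.5, 63.3 and 58.8 CPM in naive control and 96.2, 101 and 94.3 CPM in injured control libraries. In cKO mice it was at 66.9, 64.6 and 63.6 CPM before and 81.1, 108 and 102 CPM after injury. Every injured library lay above every naive one in both genotypes, with injured cKO replicate 1 the lowest of the injured. By log2 fold change the rise was 0.69 (SE 0.0879, adjusted p 0.000192) in control and 0.57 (SE 0.0877, adjusted p 0.000844) in cKO mice by edgeR, a rise of 1.62-fold and 1.48-fold. Both calls held in all 17 alternative settings in which a test was made. Over the alternatives the log2 fold change ran from 0.66 to 0.73 in control and from 0.31 to 0.67 in cKO mice. Over the 12 naive and injured libraries the genes most like Trpv2, chosen over all 26, were H13 (r = 0.985), Stat3 (r = 0.977) and Crmp1 (r = 0.984); these are descriptions over libraries that share the injury contrast. Stat3 encodes a transcription factor of the response to cytokines, and Crmp1 a protein of axon guidance.

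Trpv1 (ENSMUSG00000005952.15, chr11:73234292-73261242), the capsaicin receptor, was at 113, 136 and 124 CPM in naive control and 159, 156 and 144 CPM in injured control libraries. In cKO mice the values were 143, 135 and 135 CPM before and 173, 155 and 161 CPM after injury. The groups did not overlap in either genotype, which also held for 38.4% of all genes in control and 36.3% in cKO mice. Injury raised it by a log2 fold change of 0.30 (SE 0.0734, adjusted p 0.0124) in control and 0.23 (SE 0.0732, adjusted p 0.046) in cKO mice by edgeR. The cKO call was lost without any 1 of the 6 cKO libraries (adjusted p 0.0657 to 0.178), without the 2 injured libraries whose transcripts go against their labelled sex (adjusted p 0.075) and with the replicate number as a block (adjusted p 0.0674). It was also lost in the fit of all 26 libraries (adjusted p 0.403), with transcript sex as a covariate (0.0834), without a filter (0.0794) and with at least 10 counts asked of every library (0.0513), so that 12 of 17 alternatives lost it. The control call was lost without injured control replicate 1 (adjusted p 0.0664) or replicate 2 (adjusted p 0.0532) and in the fit of all 26 libraries (adjusted p 0.259). Over the 26 libraries the genes most like Trpv1 were Celf4 (r = 0.962), Gfra3 (r = 0.962) and Gpx3 (r = 0.961), of which Gpx3 had r = 0.235 over the 12 naive and injured libraries.

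Trpa1 (ENSMUSG00000032769.5, chr1:14872648-14918862, minus strand), the irritant receptor of nociceptors, was at 47.2, 52.6 and 51.0 CPM in naive control and 71.2, 69.4 and 62.7 CPM in injured control libraries. In cKO mice it was at 60.01, 51.6 and 55.3 CPM before and 68.0, 58.6 and 62.7 CPM after injury. Injured control lay above naive control throughout, whereas naive and injured cKO values overlapped. The log2 fold change was 0.43 (SE 0.0784, adjusted p 0.00208) in control and 0.17 (SE 0.0783, adjusted p 0.171) in cKO mice by edgeR. The difference between these responses was tested as an interaction: it was -0.27 (SE 0.111, unadjusted p 0.0343, adjusted p 1 by edgeR), so the smaller rise in cKO mice was not shown to differ from that in control mice. The genes most like Trpa1 over the 26 libraries were Nptxr (r = 0.946), Gnal (r = 0.938) and Dclk3 (r = 0.934).

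Trpc6 (ENSMUSG00000031997.9, chr9:8544142-8680741), a diacylglycerol-activated cation channel, fell in both genotypes. It was at 20.5, 19.6 and 20.98 CPM in naive control and 13.7, 14.7 and 14.7 CPM in injured control libraries. In cKO mice it was at 22.7, 21.4 and 20.8 CPM before and 15.5, 11.6 and 14.0 CPM after injury. All injured values were below all naive ones. Its log2 fold changes were -0.50 (SE 0.0925, adjusted p 0.00237) in control and -0.67 (SE 0.0927, adjusted p 0.000396) in cKO mice by edgeR, and both calls held in all 17 alternative settings. The noncoding gene Gm32014 on the opposite strand overlaps Trpc6, with 50.4% of the count of Trpc6. That gene moved the same way (log2 fold change -0.43, adjusted p 0.0286 in control and -0.71, adjusted p 0.00191 in cKO by edgeR). Whether the counting kept reads of the overlap apart by strand is not given in the sources used here. The nearest patterns over the 12 libraries among the genes chosen over all 26 were those of Pqlc3 (r = 0.986), Gpd1l (r = 0.968) and Arsb (r = 0.94).

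The cold and warmth channels of the TRPM family did not pass the threshold after injury. Trpm8 (ENSMUSG00000036251.16, chr1:88277661-88389293), the cold and menthol receptor, was at 26.8, 36.1 and 37.5 CPM in naive control and 22.2, 31.3 and 24.6 CPM in injured control libraries. Its log2 fold change was -0.36 (SE 0.146, adjusted p 0.101) in control and -0.38 (SE 0.144, adjusted p 0.0896) in cKO mice by edgeR, a 95% interval of 0.639- to 0.949-fold and 0.631- to 0.933-fold. In control mice its values overlapped through naive replicate 1, the lowest naive value, and without that library the difference passed the test (-0.50, adjusted p 0.0222). It also passed without injured control replicate 2 (-0.52, adjusted p 0.0396). In cKO mice the values were 37.1 to 43.4 CPM before and 27.3 to 33.8 CPM after injury and did not overlap, and the difference passed the test in a fit of those 2 groups alone (-0.38, adjusted p 0.0309 by edgeR).

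Trpm2 (ENSMUSG00000009292.18, chr10:77907722-77970563, minus strand), a channel opened by ADP-ribose and oxidative stress, was at 26.2 to 31.9 CPM in naive control and 22.9 to 24.6 CPM in injured control ganglia. Its log2 fold change was -0.26 (SE 0.0904, adjusted p 0.063) in control and -0.23 (SE 0.09, adjusted p 0.0966) in cKO mice by edgeR. Without naive control replicate 1 the control difference passed the test (-0.31, adjusted p 0.0448), so that 6 of the 9 channel genes were then called in place of 4, where 18.4% of all genes were called. With labelled sex as a covariate Trpm2 passed in both genotypes (-0.31, adjusted p 0.0324 in control and -0.29, adjusted p 0.0475 in cKO by edgeR). With sex taken from the transcripts, which go against 2 of those labels, it passed in neither (adjusted p 0.0675 and 0.199 by edgeR). Trpm3 (ENSMUSG00000052387.16, chr19:22139046-22995410), a steroid-sensitive heat channel, differed by -0.06 (SE 0.0542) and -0.04 (SE 0.0542) on the log2 scale. Its approximate 95% interval was 0.893- to 1.03-fold in control mice. Trpm3 varied least of the 9 genes between these groups, from 71.3 to 79.8 CPM over the 12 libraries.

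The mechanically gated channels were not called either. Piezo2 (ENSMUSG00000041482.17, chr18:63010213-63387183, minus strand) was at 216 to 252 CPM in naive control and 228 to 299 CPM in injured control ganglia, with a log2 fold change of 0.14 (SE 0.115, adjusted p 0.444 by edgeR). In cKO mice the change was 0.05 (SE 0.115, adjusted p 0.811), and its sign turned without naive cKO replicate 2 (-0.07) or injured cKO replicate 2 (-0.02). Piezo1 was at 3.11 to 4.76 CPM before and 4.26 to 4.82 CPM after injury in control mice (log2 fold change 0.16, SE 0.157, adjusted p 0.518 by edgeR), and the sign turned without naive control replicate 2 (-0.01). The 95% interval of the change of Piezo1 in control mice ran from 0.903- to 1.38-fold, and its SE was the largest of the 9.

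**Figure D2:**
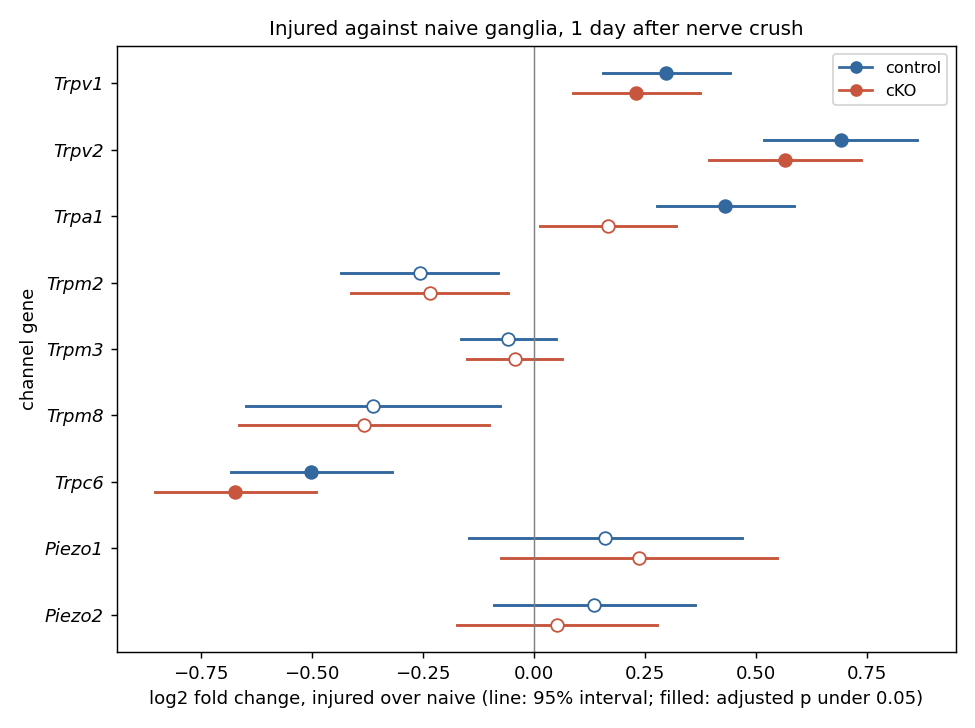
Log2 fold change of injured over naive ganglia (x axis) for the 9 channel genes (y axis), blue for control and red for cKO mice, with 95% intervals as lines and filled points where the adjusted p was under 0.05. Trpv2 and Trpv1 lie to the right and Trpc6 to the left in both genotypes, and Trpa1 is filled in control mice.

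Genes related to the 9 were described from lists. Of 18 other TRP channel genes tested, 3 rose and 2 fell in control and 2 rose and 2 fell in cKO mice. Mcoln2, an endolysosomal channel, rose from 1.5 to 1.84 CPM in naive control to 4.51 to 5.17 CPM in injured control ganglia (log2 fold change 1.47, SE 0.123, adjusted p 1.04e-05 by edgeR). Trpm1 was at 0 to 0.119 CPM in naive and 0.363 to 0.893 CPM in injured control ganglia. Trpc5, which like Trpc6 belongs to the canonical subfamily, fell in both genotypes (-0.93 and -0.98 on the log2 scale in control and cKO). The median over the 18 was -0.01 in control and 0.04 in cKO mice.

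Of 22 genes that regulate TRP channels, 5 rose and 2 fell in control and 2 rose and 6 fell in cKO mice. Bdkrb2 had the smallest p, with log2 fold changes of 1.71 (SE 0.127, adjusted p 4.48e-06) and 1.71 (SE 0.127, adjusted p 4.88e-06 by edgeR). Gfra3, the receptor of artemin, rose by 0.60 and 0.48 and was also among the 3 genes most like Trpv1 (r = 0.962 over 26 and 0.891 over 12 libraries). Src rose in control mice (0.46), and Plcb3, the phospholipase downstream of many itch and pain receptors, fell in both (-0.38 and -0.56). Of 17 other mechanosensing genes, 3 rose and 3 fell in control and 2 rose and 3 fell in cKO mice. Tmem63c (0.60 and 0.47) and Tmc1 (0.85 and 1.11) rose and Asic1 (-0.50 and -0.41) fell in both.

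Markers of neurons and other cells gave a measure of the tissue beside these results. Of 12 nociceptor markers 3 rose and 2 fell in control mice (median 0.05) and 2 rose and 4 fell in cKO mice (median -0.14). In control mice the summed level of the list was 2390 to 2560 CPM in naive and 2460 to 2720 CPM in injured control ganglia. Among them P2rx3 rose (0.32) and Mrgpra3, a marker of itch neurons, fell (-0.94) in control mice. Pan-neuronal markers summed to 7260 to 8080 CPM in naive and 7790 to 8110 CPM in injured control ganglia. No gene of these 2 lists was at 0 in every library of a group. Of 8 markers of myelinated sensory neurons 0 rose and 3 fell in control mice (median -0.25) and 1 rose and 3 fell in cKO mice (median -0.18), with sums of 2760 to 3540 CPM in naive and 2500 to 2930 CPM in injured control ganglia. Of 7 satellite glia markers 2 rose and 1 fell in control mice, and 1 rose in cKO mice. Of 5 mural cell markers 1 rose and of 7 endothelial markers 1 fell in control mice, and 0 of either list in cKO mice. No dividing cell marker (medians -0.79 in control and -1.15 in cKO mice) and no fibroblast marker (medians -0.22 and -0.50) was called by edgeR, of which 2 each had an unadjusted p under 0.05 in cKO mice and 0 in control mice. The stress gene Jun rose by 1.94 and 1.86 on the log2 scale in control and cKO mice, and the part of these markers in the channel results was not tested.

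Genotype was examined next. None of the 9 genes passed the test of cKO against control in naive ganglia, injured ganglia, neurons or either side of the sham mice by edgeR. DESeq2 also called none of the 9. Of all genes, 0.00941% were called in naive ganglia and 0.00941% in injured ganglia (0.0047% higher and 0.0047% lower in each), 0% in neurons, 0.00451% in ipsilateral and 0% in contralateral sham ganglia. DESeq2 called 163 genes in neurons and 31 in contralateral ganglia, and by edgeR 1232 genes had an unadjusted p under 0.05 in naive ganglia, 579 in injured ganglia, 1863 in neurons, 1682 in ipsilateral and 1160 in contralateral sham ganglia. At an unadjusted p under 0.05, the number of the 9 genes was 0 in naive, 0 in injured and 0 in contralateral ganglia, 3 in neurons and 1 in ipsilateral ganglia. The response to injury differed between genotypes for 0% of all genes and for none of the 9 by edgeR and by DESeq2, with 1 of the 9 (Trpa1) and 627 of all genes at an unadjusted p under 0.05. Groups did not overlap for 1 of the 9 genes in naive (12.1% of all genes) and 0 in injured ganglia (8.73%), for 2 in ipsilateral (35.8%) and for 3 in contralateral sham ganglia (38.3%). In naive ganglia the 9 folds of cKO over control ran from 0.907 (Piezo1) to 1.21 (Trpm8), with intervals of 0.731 to 1.13 and 0.995 to 1.47.

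In neurons, the cold channel Trpm8 had the largest difference of the 9. It was at 1.31, 3.32 and 2.35 CPM in control and 4.27, 4.05 and 4.19 CPM in cKO libraries, all cKO values being above all control values, as for 14.7% of all genes in either direction. The log2 fold change was 0.79 (SE 0.26, unadjusted p 0.0156, adjusted p 0.556 by edgeR). Its size ranged from 0.56 without control replicate 1, the shallowest library, to 1.12 without control replicate 2. Trpm2 (0.39, SE 0.145, adjusted p 0.591) and Trpc6 (-0.48, SE 0.194, adjusted p 0.602 by edgeR) also had unadjusted p-values under 0.05 (0.028 and 0.0383). Trpc6 differed by -0.72 without cKO replicate 1 and by -0.32 without cKO replicate 2, so its size rests on single libraries. In the same comparison all 7 endothelial markers had lower values in cKO neurons (-0.35 to -0.16, 4 at an unadjusted p under 0.05), and the median was 0.33 for myelinated sensory neuron and 0.36 for macrophage markers. None of these markers was called by edgeR, and their part in the channel values was not tested.

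Cultured neurons were set against naive ganglia in 1 fit of all 26 libraries (24101 genes). All 9 channel genes differed, in a comparison where 86.5% of all genes were called (42.9% higher and 43.6% lower), so that being called says little about a gene here. Their groups did not overlap, as for 72% of all genes. Piezo1, Trpv2 and Piezo2 were higher in neurons, and Trpm8, Trpm3, Trpc6, Trpv1, Trpm2 and Trpa1 were lower. The libraries are in different deposited tables, so culture and whatever else differs between the tables cannot be told apart. The neurons were therefore also set against the contralateral sham ganglia of their own table, which are labelled male (76.9% of all genes called). Both comparisons share the neuron libraries.

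Piezo1 (ENSMUSG00000014444.17, chr8:122481698-122551329, minus strand) had the largest rise. It was at 3.11 to 4.76 CPM in the 6 naive ganglia and at 44.6, 52.7 and 41.0 CPM in control and 45.2, 44.3 and 40.9 CPM in cKO neurons. The lowest neuron value lay above every ganglion value of any group, the highest of which was 6.14 CPM. The log2 fold change was 3.51 against naive ganglia (SE 0.101, adjusted p 4.06e-18) and 3.37 against contralateral sham ganglia (SE 0.114, adjusted p 5.21e-16 by edgeR), 11.4-fold and 10.3-fold. Ctu2, which overlaps 1 end of Piezo1, held counts equal to 61.2% of those of Piezo1 and was also higher in neurons (2.48 on the log2 scale), so part of the reads may be shared. Piezo1 also lies within the span of the gene model Gm20388.

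Markers of endothelial cells, which are known to express Piezo1, moved with it. All 7 endothelial markers were higher in neurons than in naive ganglia (median log2 fold change 3.19), and they summed to 115 to 203 CPM in naive ganglia and 1190 to 1780 CPM in neurons. Emcn, one of them, had the third highest correlation with Piezo1 among the 14355 genes compared over the 26 libraries (r = 0.994), after Arhgef2 (r = 0.995) and Ptbp1 (r = 0.994); these values rest on the gap between neurons and ganglia. Over the 12 naive and injured libraries alone r for Emcn was 0.622. The part of endothelial cells in the level of Piezo1 was not tested. Of the other mechanosensing genes, 7 of 18 were higher and 9 lower in neurons. Tmem120a was among those higher (2.31, where the largest of the list was 2.77) and Asic1 among those lower (-1.82).

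Trpv2 was at 58.5 to 66.9 CPM in naive ganglia and at 131, 159 and 154 CPM in control and 156, 146 and 153 CPM in cKO neurons. The log2 fold change was 1.26 (SE 0.0659, adjusted p 1.07e-13) against naive and 0.36 (SE 0.0723, adjusted p 0.000128 by edgeR) against contralateral sham ganglia, so the direction was kept and the size was not. Piezo2 was at 366 to 470 CPM in neurons, above all naive ganglia (216 to 288 CPM) but within the range of the sham ganglia (365 to 485 CPM). Its log2 fold change was 0.77 (SE 0.0871, adjusted p 4.7e-08) against naive and -0.06 (SE 0.0963, adjusted p 0.579 by edgeR) against contralateral sham ganglia. A rise of Piezo2 in culture therefore depends on which ganglia the neurons were set against. The patterns most like that of Piezo2 were those of L1cam (r = 0.972), Atp6v0a1 (r = 0.971) and Dst (r = 0.969).

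The fall of Trpm8 was the largest. It was at 26.8 to 43.4 CPM in naive ganglia and at 1.31 to 4.27 CPM in neurons, with a log2 fold change of -3.50 (SE 0.136, adjusted p 6.24e-16) against naive and -4.10 (SE 0.143, adjusted p 7.36e-16 by edgeR) against contralateral sham ganglia. These are levels 11.3-fold and 17.1-fold lower. Chrna7, a nicotinic acetylcholine receptor subunit, had the pattern most like it (r = 0.992 over 26 and 0.896 over 12 libraries), followed by Fam131b (r = 0.991 and 0.486) and Rims3 (r = 0.989 and 0.882). Correlations over the 26 libraries share the gap between neurons and ganglia.

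Trpm3 was at 72.9 to 79.8 CPM in naive ganglia and 12.4 to 14.5 CPM in neurons (-2.49, SE 0.0483, adjusted p 9.05e-21 by edgeR). Genes inside Trpm3 had a summed count of 27.4% of that of Trpm3, and with their reads taken off, on the assumption that they were counted for Trpm3 too, the difference was -1.93. The genes most like Trpm3 over the 26 libraries were Elavl4 (r = 0.993), Ppp1r1c (r = 0.993) and Ccdc85a (r = 0.992), with r of 0.581, 0.769 and 0.763 over the 12 naive and injured libraries. Trpc6 was at 19.6 to 22.7 CPM in naive ganglia and 3.53 to 6.92 CPM in neurons (-1.94, SE 0.103, adjusted p 1.44e-13 by edgeR). Against contralateral sham ganglia the values were -2.002 for Trpm3 and -1.83 for Trpc6.

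Trpv1, Trpm2 and Trpa1 differed less from naive ganglia than Trpm8, Trpm3 and Trpc6 did, but against contralateral sham ganglia Trpm2 (-1.83) stood level with Trpc6 (-1.83). Trpv1 was at 113 to 143 CPM in naive ganglia and at 44.1, 62.3 and 46.0 CPM in control and 70.9, 67.3 and 52.0 CPM in cKO neurons, a log2 fold change of -1.20 (SE 0.118, adjusted p 4.6e-09) against naive and -1.68 against contralateral sham ganglia by edgeR. Trpm2 differed by -1.05 and -1.83 and Trpa1 by -0.61 and -0.90 in the same comparisons. Trpa1 was at 28.7 to 44.6 CPM in neurons and 47.2 to 60.01 CPM in naive ganglia. The genes most like Trpm2 over all 26 libraries were Htr3a (r = 0.99), Slc29a4 (r = 0.985) and Camk2b (r = 0.983).

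Other cells and neuronal markers moved in the same comparison. Of 12 pan-neuronal markers 10 were lower and 2 higher (median -0.93), and they summed to 4550 to 5490 CPM in neurons against 7260 to 8080 CPM in naive ganglia. Of 12 nociceptor markers 9 were lower and 1 higher (median -0.47), and of 8 Schwann cell markers 6 were lower and 2 higher (median -3.57). Against contralateral sham ganglia all 12 pan-neuronal (median -0.96) and all 12 nociceptor markers (median -1.11) were lower, and of the Schwann cell markers again 6 were lower and 2 higher (median -3.62). The 5 stress markers were all higher (median 3.69), Fos by 3.99. The median over all genes was -0.03 and that over the 9 channels -1.05. The label of the libraries, semi-purified neurons, stands beside neuronal markers that were present but at lower CPM than in whole ganglia.

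**Figure D3:**
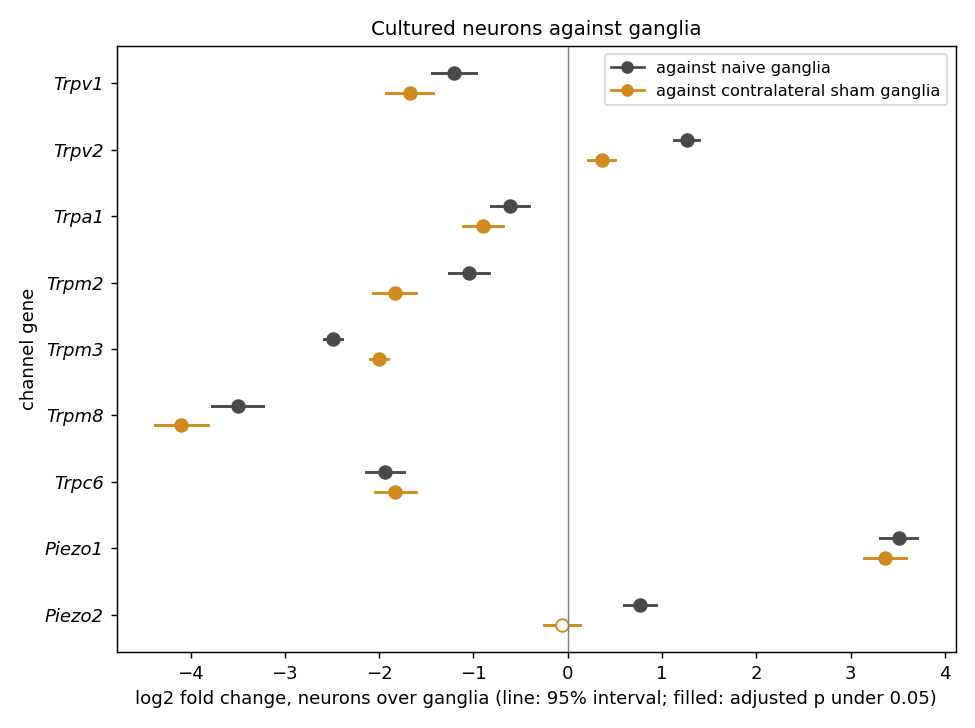
Log2 fold change of cultured neurons over naive ganglia (grey) and over contralateral sham ganglia (orange) on the x axis for the 9 channel genes (y axis), with 95% intervals and filled points where the adjusted p was under 0.05. Piezo1 lies near 3.51 and 3.37 and Trpm8 near -3.50 and -4.10, and Piezo2 is at 0.77 in 1 comparison and -0.06 in the other.

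Ratios within a library do not depend on its scaling. Per kilobase of exon, Trpv2 was at 0.261 to 0.582 of Trpv1 in the 20 libraries of ganglia and at 1.78 to 2.75 of Trpv1 in the 6 of neurons, so the 2 genes changed places in every neuron library. The same held per kilobase of gene span (0.329 to 0.735 and 2.25 to 3.47). After injury the ratio was 0.496 to 0.537 in control ganglia, against 0.381 to 0.424 in naive control ganglia. In cKO mice the ranges overlapped, at 0.385 to 0.572 after injury and 0.384 to 0.391 before, with injured cKO replicate 1 the lowest of the injured. Piezo1 was at 0.0139 to 0.038 of Piezo2 in ganglia and 0.151 to 0.211 in neurons. Trpm8 was at 0.0938 to 0.268 of Trpv1 in ganglia and 0.0231 to 0.0626 in neurons. The ratio of Trpa1 to Trpv1 overlapped, at 0.162 to 0.386 in ganglia and 0.369 to 0.632 in neurons.

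**Figure D4:**
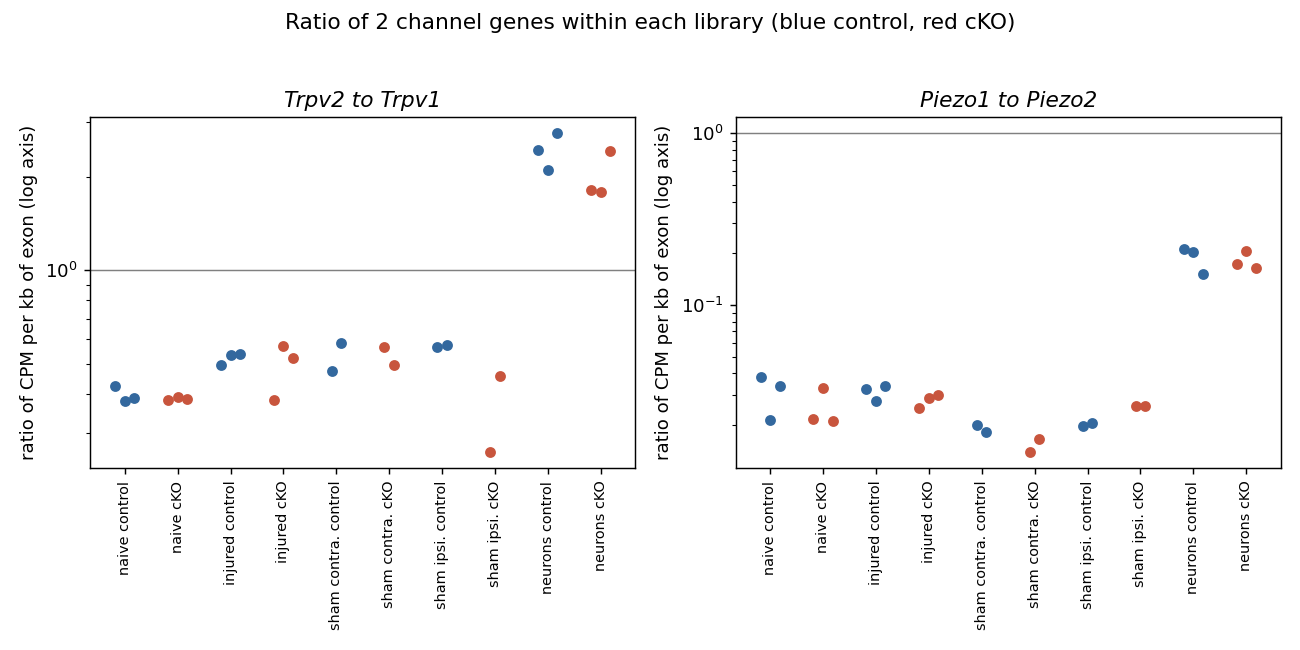
Ratio of Trpv2 to Trpv1 (left) and of Piezo1 to Piezo2 (right) in CPM per kilobase of exon (y axis, log scale) in each library (points) by group (x axis), blue for control and red for cKO, with a line at 1. The 6 neuron libraries lie between 1.78 and 2.75 on the left and between 0.151 and 0.211 on the right, above all ganglia.

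Both sides of the sham mice were compared last, within 8 libraries (22160 genes). None of the 9 genes passed the test of ipsilateral against contralateral ganglia, where 0.00451% of all genes were called by edgeR, and DESeq2 called none of the 9. At an unadjusted p under 0.05 there were 4 of the 9 (Trpv1, Trpv2, Trpc6 and Piezo1) and 1675 of the 22160 genes tested. The side of each mouse could be paired, and the mouse as a block called none either.

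Trpv1 was higher on the operated side in 3 of 4 mice. In cKO mouse 1 it was at 417 CPM ipsilaterally and 184 CPM contralaterally, in cKO mouse 2 at 235 and 172 CPM, in control mouse 1 at 205 and 213 CPM, and in control mouse 2 at 181 and 159 CPM. The side effect was 0.49 on the log2 scale (SE 0.177, adjusted p 0.599 by edgeR), and 0.27 without cKO mouse 1. Without a filter on low counts Trpv1 passed the test of side (0.48, adjusted p 0.00895) and of genotype ipsilaterally (adjusted p 0.00138 by edgeR). On the ipsilateral side cKO exceeded control by 0.79 (SE 0.251, adjusted p 0.544 by edgeR), and by 0.30 without that library. Trpm2 had its highest value in the same library (81.7 CPM against 44.7 CPM on the other side of that mouse), and there its cKO difference of 0.42 became -0.002 without it. The ipsilateral cKO library of that mouse therefore carries most of both differences. Dividing-cell markers summed to 23.8 to 33.2 CPM in the ipsilateral cKO ganglia and 10.9 to 16.2 CPM in the ipsilateral control ganglia, and their part was not tested.

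Trpc6 was lower on the operated side in 4 of 4 mice. Its ipsilateral and contralateral values did not overlap, as for 4.12% of all genes. The levels were 16.5 and 14.2 CPM ipsilaterally against 22.4 and 17.3 CPM contralaterally in the cKO mice, and at 15.8 and 15.2 against 19.7 and 18.3 CPM in the control mice. The side effect was -0.31 (SE 0.0999, unadjusted p 0.0159, adjusted p 0.534 by edgeR) and ranged from -0.35 to -0.27 with any mouse left out. Trpv2 was higher on the operated side in 4 of 4 mice (0.21, SE 0.0757, adjusted p 0.597 by edgeR), with 141 and 126 against 124 and 113 CPM in control and 132 and 131 against 127 and 104 CPM in cKO mice. Neither gene passed the test of side, and the values of Trpv2 overlapped between the sides. The share of all genes with the same direction in 4 of 4 mice was not computed.

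Piezo1 was higher ipsilaterally in 3 of 4 mice, at 5.64 and 6.14 against 3.73 and 4.09 CPM in cKO mice. The control mice had 5.51 and 4.33 CPM on the operated against 4.93 and 4.72 CPM on the opposite side. The side effect was 0.34 (SE 0.114, adjusted p 0.553 by edgeR). Schwann cell markers summed to 3040 to 4310 CPM ipsilaterally and 3400 to 5290 CPM contralaterally, and endothelial markers to 108 to 141 and 87.9 to 156 CPM, and their part in these values was not tested.

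**Figure D5:**
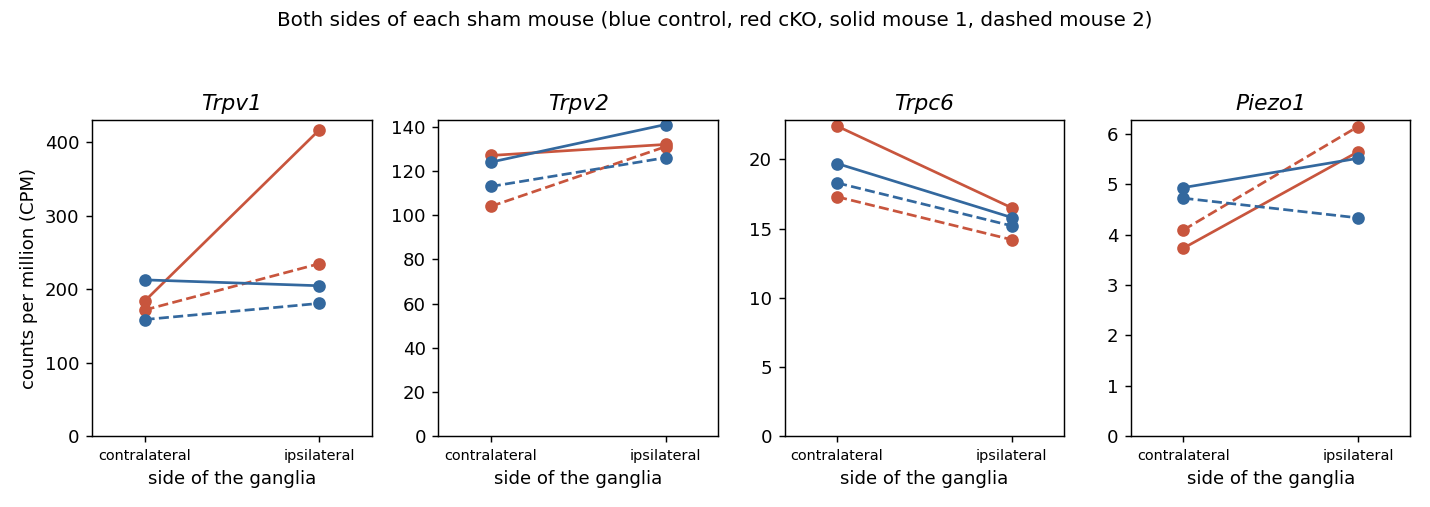
Level in CPM (y axis, from 0) of Trpv1, Trpv2, Trpc6 and Piezo1 in contralateral and ipsilateral ganglia (x axis) of the 4 sham mice, blue for control and red for cKO, solid for mouse 1 and dashed for mouse 2, with a line joining the sides of a mouse. Trpc6 is lower and Trpv2 higher on the operated side in all 4 mice, and Trpv1 of cKO mouse 1 goes from 184 to 417 CPM.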

How the data were processed

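The authors deposited 2 tables of counts and 2 of FPKM for the same 26 libraries (TruSeq Stranded mRNA, per the labels' protocols). Trim Galore, HISAT2, featureCounts and mm10 are named in the submitters' processing notes, and the strand setting is not given in the sources used here. The deposited counts were the values tested. The deposited FPKM were not tested, but read to learn the length they use: it equals the gene span, introns included, within 0.1% for 99.4% of genes. Symbols were matched through GENCODE M21 for 55141 of 55401 genes (99.53%), and genes that share a stretch may share reads.

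The main test was edgeR 4.0.16 (quasi-likelihood, TMM, filterByExpr with a minimum count of 10 and total of 15, 1 mean per group) in R 4.3.3, two-sided, with Benjamini-Hochberg adjustment over all genes of a comparison. Levels are CPM with TMM over 26 libraries, and the SE of a log2 fold change was taken from it and the F statistic, as its size over the root of F. The 95% intervals are approximate, as the log2 fold change plus and minus 1.96 SE. They can be narrower than the test: that of Trpa1 in cKO injury was 1.01- to 1.25-fold at an unadjusted p of 0.0536 by edgeR. The alternatives used DESeq2 1.42.0, other filters, normalization, samples, sex covariates, blocks and each replicate left out. Taking off reads of nested genes was added after seeing the data, as was the use of ratios.

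Named were the 9 channels, Ahr and Thy1, in each list at most the 3 called genes with the smallest p in each direction, and the 3 genes with the highest r to each channel. AC124513.1, Gm32014, Ctu2 and Emcn beside them were named for overlap or by these rules. Members and lists were chosen with earlier results of these data known. Genes of the lists are given as examples within that rule, and one gene is not reported here.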

Additional observations from a re-analysis of the deposited data

Results flagged for a closer look

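Piezo1 was the only one of the 9 genes whose cKO effect went opposite ways in every library of 2 settings. In sham mice both cKO values were above both control values ipsilaterally (5.64 and 6.14 against 4.33 and 5.51 CPM, log2 fold change 0.29) and below them contralaterally (3.73 and 4.09 against 4.72 and 4.93 CPM, log2 fold change -0.31). Tested as an interaction within the 8 sham libraries, the difference was 0.60 on the log2 scale (SE 0.229, unadjusted p 0.0317, adjusted p 1 by edgeR), so it did not pass the correction over all genes. Beside it, all 7 endothelial markers had lower values in contralateral cKO ganglia (-0.60 to -0.29, median -0.39, 1 at an unadjusted p under 0.05), with a median of -0.11 ipsilaterally and of 0.35 for the interaction. Their summed level was 87.9 to 115 CPM in contralateral cKO and 116 to 156 CPM in contralateral control ganglia, and 108 to 141 and 134 to 140 CPM ipsilaterally. The medians of the interaction were 0.99 for dividing cell (3 of 4 at an unadjusted p under 0.05), 0.73 for mural cell and 0.49 for macrophage markers, none of the markers of these 4 lists was called by edgeR, and their part in the values of Piezo1 was not tested. Among 90 pairs of settings and genes compared in this way, 1 showed such opposite directions. With 2 libraries against 2, the genotypes did not overlap for 35.8% of all genes ipsilaterally and 38.3% contralaterally, in either direction. The same interaction was larger for Trpv1 (0.86, SE 0.354, unadjusted p 0.0427 by edgeR) and Trpm2 (0.62, SE 0.316), which did not pass the correction either.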

How the results depend on the processing

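The log2 fold changes followed here were those selected for printing, which leave out some of the 9 genes in some comparisons. Of their alternative values, 888 kept direction and call, 15 lost and 12 gained a call, and 15 turned sign. With transcript sex as a covariate, Trpm3 (0.009) and Piezo2 (-0.001) turned in cKO injury, Trpv1 (0.02) and Trpc6 (0.004) in the genotype by injury interaction, and Trpa1 (0.002) in the cKO effect of injured ganglia. Piezo2 turned in cKO injury without the 2 libraries at odds with their labelled sex (-0.017) and in culture against contralateral sham ganglia (-0.061). The cause was not tested.

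Of the counts of genes or channels called, 289 alternative values stayed within 1.5 times and 47 did not. Genes called in cKO injury (3962) were 1414 with transcript sex and 2400 without those 2 libraries, and 5 channel genes and 24.7% of all genes passed an adjusted p under 0.1. Genes called for genotype in naive ganglia (2) were 1 without those libraries and 0 in the 2 groups alone, and in injured ganglia (2) they were 4 in the fit of 26 libraries, 0 with transcript sex and 0 without those libraries. In neurons (0) they were 163 by DESeq2, 27 without a filter, 77 in the fit of 26 and 9 at 0.1. In ipsilateral sham ganglia (1) they were 153 by DESeq2, 626 without a filter and 29 in the fit of 26, and contralaterally (0) 31, 59, 4 and, at 0.1, 2. For sham side (1) they were 200, 381, 148 and 2, and for its interaction with genotype (0) 12 by DESeq2 and 144 without a filter. Without a filter 1 channel gene, Trpv1, was called ipsilaterally and 1, also Trpv1, for side.

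Replicate numbers did not pair the samples: same-numbered libraries had correlations of -0.507 to -0.051 between genotypes in naive, 0.03 to 0.319 in injured ganglia and 0.053 to 0.318 in neurons. Between naive and injured ganglia they were -0.055 to 0.486 in control and -0.179 to -0.162 in cKO mice. With the replicate number as a block, 4390 genes were called in control injury, 3707 in cKO injury, 1 for genotype in naive ganglia, 5 in neurons and 3 in ipsilateral ganglia. The sides of a sham mouse are paired by the labels (correlations 0.24 in control and -0.186 in cKO), and the mouse as a block gave 4 genes for side.

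With each replicate left out in turn, genes called numbered 3116 to 4072 in control injury (3 to 6 channel genes), 2660 to 3747 in cKO injury (2 channel genes in each), 0 to 8 in the interaction with injury, 1 to 2, 0 to 15 and 0 to 15 for genotype in naive ganglia, injured ganglia and neurons, 1 to 98 ipsilaterally, 0 contralaterally, 0 to 41 for side, 0 to 41 for its interaction and 20120 to 21098 in culture. Among the fold changes followed, signs turned for Piezo1 in control injury (-0.007 to 0.268) and Piezo2 in cKO injury (-0.065 to 0.118). For genotype they turned for Trpm2 (-0.002 to 0.718) ipsilaterally and Trpv1 (-0.268 to 0.18) contralaterally. For side they turned for Trpm2 (-0.022 to 0.409), Trpm3 (-0.091 to 0.044) and Piezo2 (-0.216 to 0.028). Where 1 library remained in a group, it was taken to vary like the other groups.

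Piezo1 in ganglia, Trpc6 and neuronal Trpm8 rest on the lowest counts. Per library these ran from 73 to 301, from 162 to 1038 (all groups) and from 33 to 358.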
